A study of Mus musculus with 9 samples.

Results

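Mouse extra-embryonic endoderm stem (XEN) cells with a deletion on the paternal X, described as upstream of Xist, were studied by RNA-seq. They were compared with wild-type clones of the same cell type. The comparison took 2 libraries named DXp and 2 named WT_clone, chosen by their names in the deposited count tables, of 9 libraries in the series. It used the 11512 genes with complete rows in both tables, of 55401 genes in the table that holds DXp. Those were all listed genes of chromosomes 1, 2 and X and 1646 of the 2885 genes of chromosome 3, and other autosomes were not analysed here. Xist, the X-linked non-coding RNA, was 3.99-fold higher in DXp than in the clones, a difference that did not pass with offsets for GC content and gene length (edgeR adjusted p = 0.0945). Of 14 tested cytosolic ribosomal protein genes, 12 were lower in DXp, where 25.0% of all genes tested were lower. With offsets 9 of the 14 were lower, beside 10.6% of all genes tested.

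The DXp cells were labelled female, of a hybrid background (M. m. molossinus crossed with M. musculus), and carried the deletion on the paternal X. The series describes the deleted segment as upstream of Xist, gives each deletion 2 biological replicates, and asks what the deletion does in XEN cells. The WT_clone libraries were labelled WT, of the same hybrid background, with no sex given, and named clone 1 and clone 2. All cells were grown in DMEM with serum, total RNA was taken with Trizol, and libraries came from a stranded kit of either of the makes named, without saying which for which library. Both DXp names begin with D1, whose meaning is not given, so if D1 is a single line, line and genotype cannot be told apart. DXp and WT_clone came from separately deposited tables, so table and genotype cannot be told apart either. Nothing says whether the libraries of WT_clone came from independent derivations beyond their clone names, so the p-values cover the spread between these samples only, which may be technical. The remaining libraries, WT_EV (n = 3, wild type) and DXp_DXm (n = 2, homozygous deletion), entered the fit to estimate each gene's spread and are given as context.

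XEN cells are derived from the primitive endoderm, the lineage that makes the parietal and visceral yolk sac. In this lineage of female mouse embryos the paternal X is the silenced one by imprint. Silencing is carried out by Xist RNA, which spreads in cis over the chromosome that transcribes it and draws in polycomb complexes and other repressors, while a minority of X-linked genes escape and stay expressed from both copies. Counts here were per gene, with no separation of parental alleles.

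Counts of the shared genes were 6687693 and 5803983 in DXp libraries 1 and 2 and 7641676 and 5825838 in WT clones 1 and 2. The number of shared genes with a count ranged from 3867 to 4677 in these 4 libraries. The levels below are CPM, the shares of a library's TMM-scaled shared-gene total, and a gene passed at an adjusted p under 0.05 in edgeR's quasi-likelihood test. Across tested genes, log2(CPM + 1) correlated at 0.981 between the DXp libraries, 0.945 between the clones, and 0.854 to 0.892 across the groups. Of 3302 tested genes, 46 differed by over 4-fold (CPM + 1) between the DXp libraries and 252 between the clones.

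Xist (ENSMUSG00000086503, GRCm38 chrX:103460366-103483254, minus strand) had 400096 and 338652 counts in DXp libraries 1 and 2, and 102206 and 122140 in WT clones 1 and 2. Its level was 68329 and 75748 CPM in DXp and 15421 and 20658 CPM in the clones. Both DXp libraries lay above both clones. The log2 change was 2.0 (SE 0.43, 95% interval 1.05 to 2.94, adjusted p = 0.00408). Xist passed after leaving out each of the 4 libraries in turn, at 1.80 to 2.22. With offsets that remove each library's trend with GC content and length, the log2 difference was 0.90 (95% interval 0.15 to 1.66) and did not pass (adjusted p = 0.0945). In the other groups Xist averaged 31217 ± 11655 CPM (SD, n = 2) in DXp_DXm and 6121 ± 2593 CPM (SD, n = 3) in WT_EV, so the mean of the clones lay above that of WT_EV and below that of either deletion. The deletion's ends are not stated in the sources used here, so a gene-level count of Xist does not check the genotype. Nor is the strand setting of the counting given, so reads of Xist and of the antisense gene that overlaps it cannot be told apart. In such bulk RNA, fewer cells that express a gene and less of its RNA per cell cannot be told apart.

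**Figure D1:**
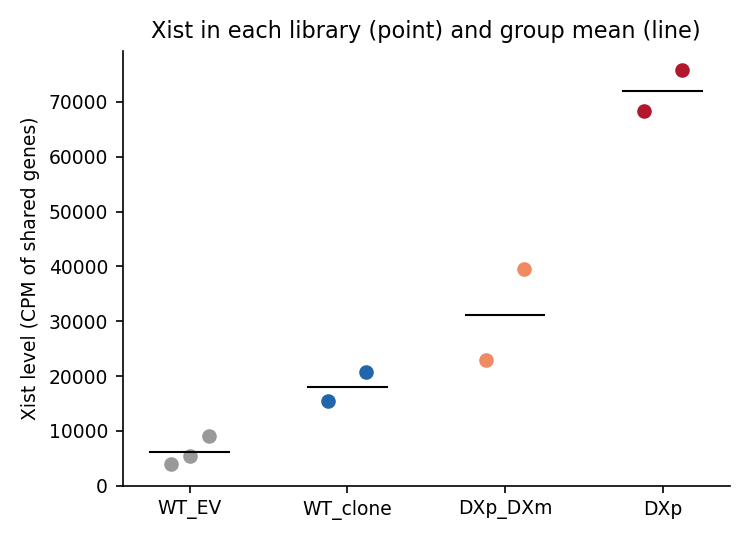
Xist level in CPM of shared genes (vertical axis, linear) in each of the 9 libraries, with points for libraries and lines for group means. The DXp points lie at 68329 and 75748 CPM, above all points of the other 3 groups.

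The Xist promoter is shown because the deletion is described as lying upstream of the gene. The sequence is RefSeq's for GRCm38.p6, chrX:103483184-103483483, minus strand, with the 250 bases before the transcription start in lower case and the 50 transcribed bases in capitals.
Xist: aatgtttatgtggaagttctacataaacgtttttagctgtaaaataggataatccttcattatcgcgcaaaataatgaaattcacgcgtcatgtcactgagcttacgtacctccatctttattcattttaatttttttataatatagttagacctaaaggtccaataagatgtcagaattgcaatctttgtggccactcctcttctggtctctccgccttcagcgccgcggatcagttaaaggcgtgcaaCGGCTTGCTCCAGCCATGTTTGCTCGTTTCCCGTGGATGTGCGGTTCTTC
This window held 15 CpG dinucleotides (the letters CG, which read the same on both strands) and was 41.3% G or C. The median over 27025 mouse promoters of that length was 7 CpG and 52.7% G or C, and 66.5% of them had as few CpG as Xist or fewer.

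Across the shared genes, 3302 passed the filter on low counts and 8210 did not. Of those tested, 502 (15.2%) were higher and 827 (25.0%) lower in DXp, 1329 in all (40.2%), and 452 and 801 differed by at least 2-fold. In 2250 genes (68.1%) both libraries of one group lay above both of the other. The median log2 change was -0.09. Without DXp library 2 the calls dropped to 207 higher and 485 lower. In the fit of the 4 libraries alone, 292 were higher and 624 lower. For 75 of the tested genes, 63 of them miRNA genes, all 4 libraries had no count. Such genes passed the filter through the libraries of WT_EV or DXp_DXm.

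The size and direction of a gene's change moved with its GC content. Genes of under 42% GC had a median log2 change of 1.16, with 268 of 755 higher and 8 lower. From 42% to 48% the median was 0.41, with 200 higher and 89 lower of 1089. In the next class, 48% to 54%, it was -1.12, with 31 higher and 377 lower of 924. Above 54% it was -2.79, with 2 higher and 353 lower of 529. The GC-rich genes were lower in DXp in each pairing of a DXp library with a clone: the median of the over-54% class minus that of the under-42% class lay between -3.35 and -2.59 on the log2(CPM + 1) scale. GC content of the longest transcript and the gene length deposited with the counts accounted for 43.7% of the variance of the log2 changes over 3297 genes. Whether the trend belongs to the cells or to the libraries was not tested.

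**Figure D2:**
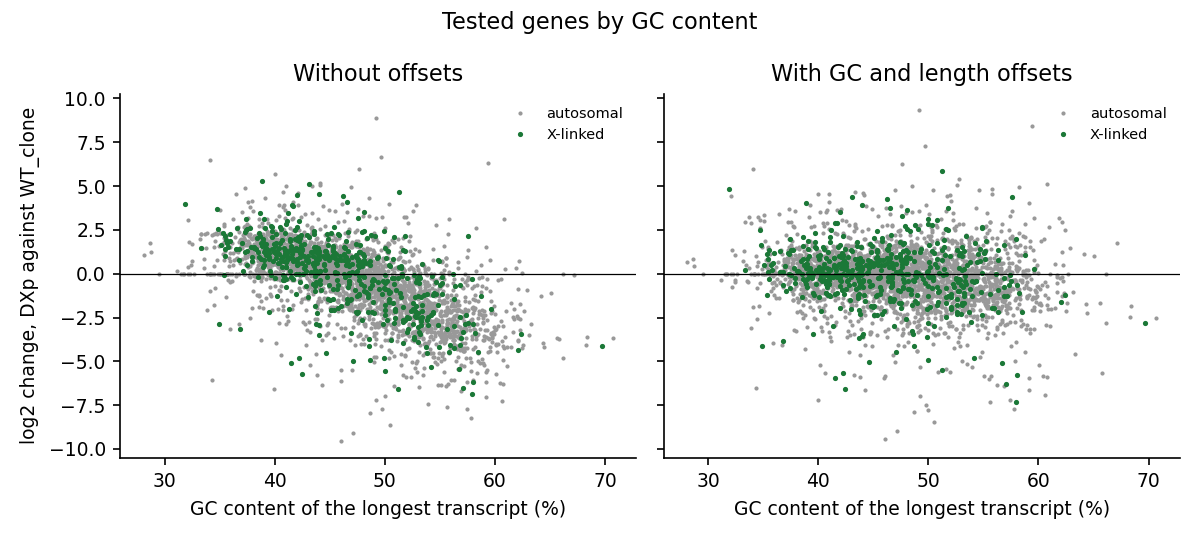
Log2 change of DXp against WT_clone (vertical axis) by GC content of the longest transcript in percent (horizontal axis), 1 point per tested gene, grey for autosomal and green for X-linked, without (left) and with (right) GC and length offsets. The class medians run from 1.16 under 42% GC to -2.79 over 54% on the left and from 0.08 to -0.70 on the right.

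With offsets for GC content and length, 171 genes (5.19%) were higher and 349 (10.6%) lower of 3297, 520 in all (15.8%), and the median log2 change was -0.04. The calls of both fits shared 408 genes of the same direction, 104 higher and 304 lower, and 1 gene of opposite directions. Those 408 genes were 30.7% of the calls without offsets and 78.5% of the calls with them. The class medians shrank to 0.08, 0.03, -0.23 and -0.70 from the GC-poorest to the GC-richest class. The offsets were fitted on the same libraries, so they also remove any change of the cells that follows GC content. Results below are therefore given without and with offsets. Counts of called genes in a list are to be read beside the shares over all genes tested. Those were 15.2% higher and 25.0% lower without offsets, and 5.19% and 10.6% with them.

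X-linked genes were higher in DXp more often than autosomal genes before the offsets. Of 532 X-linked genes tested, 137 (25.8%) were higher and 110 (20.7%) lower, with a median log2 change of 0.46. Of 2770 autosomal genes, 365 (13.2%) were higher and 717 (25.9%) lower, with a median of -0.17. Chromosomes 1, 2 and 3 had medians of -0.08, -0.34 and -0.01. The X-linked median exceeded the autosomal one by 0.62, and by 0.32 without WT clone 2. Without DXp library 2, 64 X-linked genes were higher and 62 lower, and 143 and 423 autosomal ones. X-linked genes were also GC-poorer, with a median GC content of 45.4% against 47.3%. With offsets 45 X-linked genes were higher and 61 lower, the median was 0.04, and the excess over autosomal genes was 0.097. Within the GC classes the X-linked and autosomal medians without offsets were 1.32 and 1.10 under 42%, 0.64 and 0.35 from 42% to 48%, -1.15 and -1.10 from 48% to 54%, and -2.41 and -2.80 above 54%. Of the shared counts other than those of Xist, X-linked genes took 18.5% and 18.0% in DXp libraries 1 and 2 and 14.3% and 17.3% in WT clones 1 and 2.

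Distance from Xist did not order the X-linked genes in these groups. Within 1 Mb, 3 of 16 genes were higher and 1 lower, with a median log2 change of 0.44. From 1 to 5 Mb, 10 of 50 were higher and 13 lower, with a median of -0.20. Beyond 5 Mb, 123 of 465 were higher and 96 lower, with a median of 0.50. With offsets the medians were -0.21, -0.23 and 0.07. The nearest called neighbour was Chic1, 0.064 Mb from Xist, a gene for a membrane-associated protein. Chic1 measured 482 and 544 CPM in DXp and 103 and 66.0 CPM in the clones. Both DXp libraries were above both clones, and the log2 change was 2.61 (SE 0.41 and adjusted p = 0.000703), or 1.33 (adjusted p = 0.0255) with offsets. Chic1 was named after its values were seen.

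**Figure D3:**
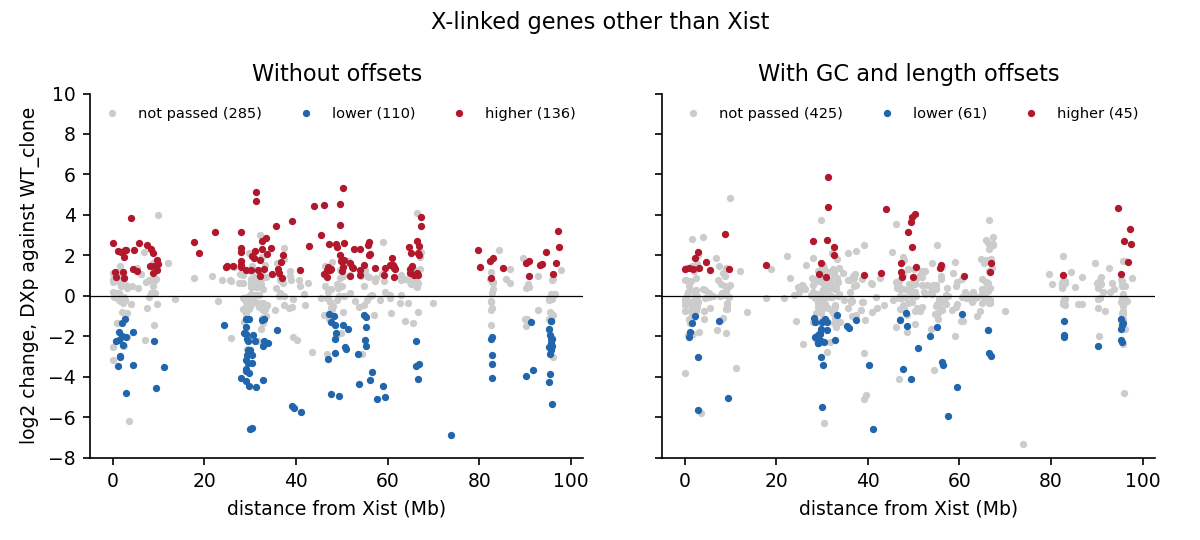
Log2 change of X-linked genes other than Xist (vertical axis) by distance from Xist in Mb (horizontal axis), without (left) and with (right) GC and length offsets, coloured by call. Of 531 genes, 136 were higher and 110 lower on the left, 45 higher and 61 lower on the right, spread along the whole chromosome.

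Genes known to escape X inactivation went both ways. Of the 16 tested, 5 (31.25%) were higher and 5 (31.25%) lower, with a median log2 change of 0.25. Of all X-linked genes tested, 25.8% were higher and 20.7% lower. With offsets 1 escape gene was higher and 4 lower, with a median of -0.50. Higher genes numbered 3 without either DXp library or without WT clone 1, and lower genes 3 without DXp library 2. Kdm6a, the X-linked histone H3 lysine 27 demethylase, was at 807 and 855 CPM in DXp and 276 and 366 CPM in the clones. Its DXp libraries were the higher ones, by 1.37 (SE 0.29 and adjusted p = 0.00376), against 0.44 (adjusted p = 0.281) with offsets. Usp9x, a deubiquitinating enzyme gene, was higher by 1.60 (SE 0.31 and adjusted p = 0.00218), and 0.40 (adjusted p = 0.333) with offsets. Opposite to these, Kdm5c, a histone H3 lysine 4 demethylase gene, was at 196 and 216 CPM in DXp and 813 and 650.3 CPM in the clones, a log2 change of -1.83 (SE 0.27 and adjusted p = 0.000504), and -0.33 (adjusted p = 0.415) with offsets. Hdac6, a cytoplasmic deacetylase gene, was lower in both fits, at -2.89 (SE 0.41 and adjusted p = 0.00039) without and -1.46 (adjusted p = 0.0315) with offsets. So was Utp14a, a gene of ribosomal RNA processing, at -1.51 (SE 0.29 and adjusted p = 0.00234) and -1.55 (adjusted p = 0.00703). Shroom4, which encodes an actin regulator, was the escape gene higher in both fits, at 1.65 (SE 0.40 and adjusted p = 0.0077) and 1.67 (adjusted p = 0.0179). Ddx3x and Eif2s3x, an RNA helicase gene and a translation initiation factor gene, did not pass, at 0.38 (SE 0.29 and adjusted p = 0.308) and 0.13 (SE 0.28 and adjusted p = 0.746). With offsets both values were below 0, at -0.59 (adjusted p = 0.195) and -0.43 (adjusted p = 0.34).

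Genes listed as subject to X inactivation split evenly as well without offsets. Of 40 tested, 13 (32.5%) were higher and 13 (32.5%) lower, with a median log2 change of 0.65. Of all X-linked genes tested, 25.8% were higher and 20.7% lower. With offsets 2 of the 40 were higher and 10 lower, with a median of -0.26. In the fit without offsets, leaving out DXp library 2 gave a median of 0.58, and fewer of the 40 were called in either direction. Idh3g, a subunit gene of mitochondrial isocitrate dehydrogenase, was at 15.9 and 14.1 CPM in DXp and 237 and 179.8 CPM in the clones. The clones were far above DXp, with a log2 change of -3.79 (SE 0.39 and adjusted p = 7.45e-05), and -3.00 (adjusted p = 0.00163) with offsets. G6pdx, for the first enzyme of the pentose phosphate pathway, changed by -3.59 (SE 0.43 and adjusted p = 0.00016) and -2.17 (adjusted p = 0.00582) in the 2 fits. Uba1, for the main ubiquitin-activating enzyme, changed by -3.35 (SE 0.36 and adjusted p = 8.58e-05) and -2.04 (adjusted p = 0.00272). Higher in both fits were Phf6, a PHD-finger protein gene, and Ogt, for the enzyme that adds N-acetylglucosamine to nuclear proteins. Phf6 stood at 246 and 313 CPM in DXp and 46.9 and 43.3 CPM in the clones, a log2 change of 2.63 (SE 0.32 and adjusted p = 0.000174), and 1.40 (adjusted p = 0.0137) with offsets. Ogt stood at 5442 and 6577 CPM in DXp and 1408 and 1239 CPM in the clones, a log2 change of 2.18 (SE 0.29 and adjusted p = 0.000271), and 1.34 (adjusted p = 0.00703) with offsets. For both genes the DXp libraries lay above the clones with a wide gap.

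Partners of Xist RNA and factors of X silencing had 5 of 11 (45.5%) higher and 2 (18.2%) lower, with a median of 0.63. Without DXp library 2 the median was 0.70, but fewer of the 11 were called higher. With offsets 1 was higher and 2 lower, with a median of -0.02. Ciz1, a nuclear matrix protein gene whose product anchors Xist RNA, was at 20.7 and 24.6 CPM in DXp and 358 and 256 CPM in the clones. It was lower in DXp in both fits, at -3.76 (SE 0.39 and adjusted p = 7.45e-05) and -1.81 (adjusted p = 0.0106). Smc1a, a cohesin subunit gene, was also lower in both, at -1.42 (SE 0.29 and adjusted p = 0.00322) and -1.47 (adjusted p = 0.00687). Bmi1, a subunit gene of polycomb repressive complex 1, was higher by 1.72 (SE 0.30 and adjusted p = 0.0012), but 0.63 (adjusted p = 0.164) with offsets. Celf1, an RNA-binding protein gene, did not pass, at 0.63 (SE 0.28 and adjusted p = 0.0934). The wider list of polycomb and histone methylation genes had 5 of 25 (20.0%) higher and 10 (40.0%) lower, with a median of -0.53. With offsets 2 were higher and 3 lower. Without DXp library 2 the median was -0.47, but fewer of the 25 were called lower. Among them Smyd2, for a lysine methyltransferase, was lower in both fits, at -3.17 (SE 0.42 and adjusted p = 0.000274) and -1.55 (adjusted p = 0.017).

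The 10 higher genes of the naming rule were led by Stk39 (chr2:68210445-68472268), for a kinase that regulates ion cotransporters. Stk39 measured 311 and 237 CPM in DXp and 0.302 and 0.846 CPM in the clones, against 20.7 ± 8.47 CPM (SD, n = 2) in DXp_DXm and 19.8 ± 10.5 CPM (SD, n = 3) in WT_EV. The clones were the low libraries of the series for this gene and DXp the high ones. The log2 change was 8.86 (SE 0.77, 95% interval 7.17 to 10.56, adjusted p = 4.26e-05), and 9.34 (adjusted p = 0.000261) with offsets. Wipf1, for a partner of the actin regulator WASP, was at 79.1 and 71.4 CPM in DXp and 1.06 and 0.338 CPM in the clones, a log2 change of 6.68 (SE 1.15 and adjusted p = 0.00121). Ttc21b, for a component of retrograde transport in cilia, was at 182 and 214 CPM in DXp and 5.73 and 1.69 CPM in the clones, a log2 change of 5.72 (SE 0.92 and adjusted p = 0.00105). Rragb, for a small GTPase that relays amino acid supply to mTORC1, was at 32.4 and 50.1 CPM in DXp and 1.51 and 2.03 CPM in the clones, a log2 change of 4.53 (SE 0.68 and adjusted p = 0.00056). All 3 passed with offsets and without each library in turn.

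Pla2g4a, for the cytosolic phospholipase that releases arachidonic acid, was at 34.2 and 28.2 CPM in DXp and 1.51 and 0.169 CPM in the clones, a log2 change of 5.15 (SE 1.18 and adjusted p = 0.00558). It was near 0 elsewhere, with 0.173 ± 0.245 CPM (SD, n = 2) in DXp_DXm and 0.23 ± 0.398 CPM (SD, n = 3) in WT_EV. Fam171b was at 15.2 and 19.0 CPM in DXp and 0.302 and 0.677 CPM in the clones, a log2 change of 5.07 (SE 0.84 and adjusted p = 0.00172). Armcx3, an X-linked gene for a mitochondrial outer membrane protein, was at 86.4 and 141 CPM in DXp and 2.41 and 4.06 CPM in the clones, a log2 change of 5.13 (SE 1.06 and adjusted p = 0.00368). These 3 passed with offsets and without each library in turn. The remaining 3 lost their call when single libraries were left out. Kctd12b was at 5.12 and 53.5 CPM in DXp and 0.905 and 0.507 CPM in the clones, called at 5.31 (SE 1.31 and adjusted p = 0.00863), and at 2.83 without DXp library 2 (adjusted p = 0.116). Armcx2 was at 3.24 and 15.0 CPM in DXp and 0 and 0.677 CPM in the clones, called at 4.69 (SE 1.35 and adjusted p = 0.0224), at 3.23 without DXp library 2 (adjusted p = 0.182) and at 3.68 without WT clone 1 (adjusted p = 0.0540). Slc7a11, for the cystine-glutamate antiporter, was at 40.5 and 2.01 CPM in DXp and 0 and 1.69 CPM in the clones, called at 4.64 (SE 1.56 and adjusted p = 0.037), and did not pass with offsets or, at 3.65, without WT clone 1 (adjusted p = 0.0871). Without DXp library 1 it was not tested, being under the filter.

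**Figure D4:**
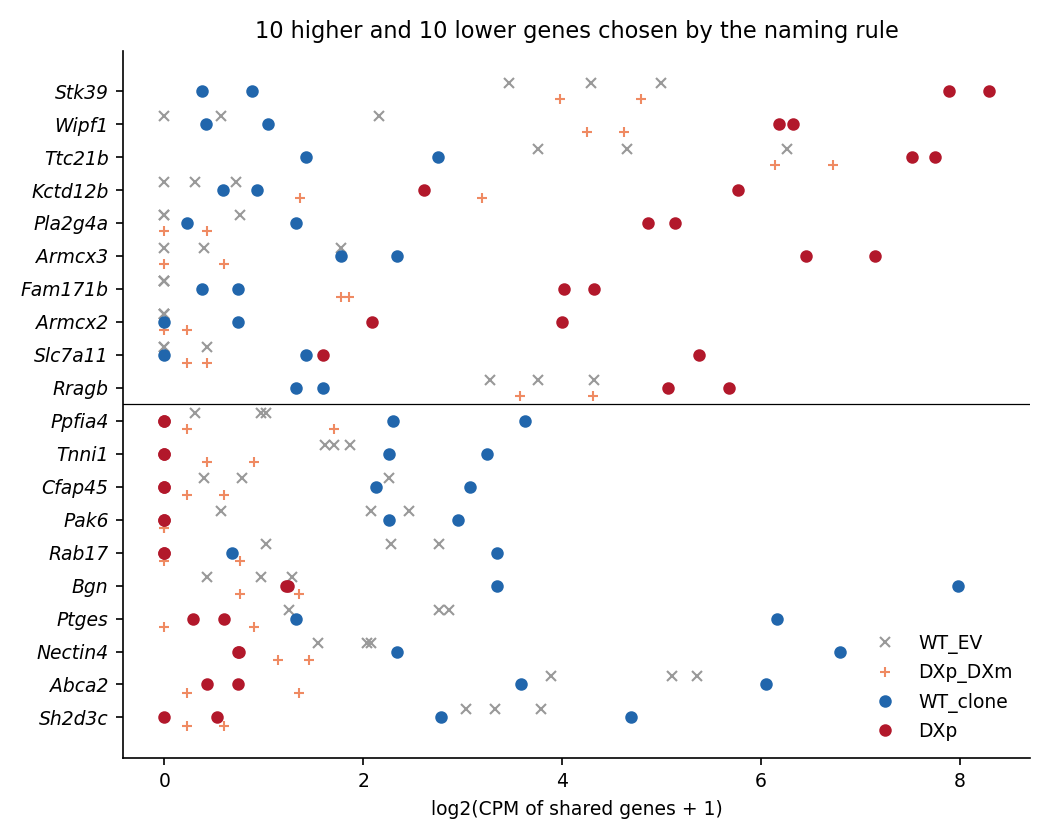
Levels of the 10 higher (top) and 10 lower (bottom) genes of the naming rule as log2(CPM + 1), with 1 symbol per library: red circles for DXp, blue circles for WT_clone, orange plus signs for DXp_DXm and grey crosses for WT_EV. Red and blue circles do not overlap in any row, as the rule required, and Ppfia4, Tnni1, Cfap45, Pak6 and Rab17 have both DXp circles at 0.

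Of the 10 lower genes, 5 had no count in either DXp library, so only lower bounds of the fold, taking 3 counts over the group as its floor, can be given. Ppfia4 (chr1:134296783-134332928), for a liprin scaffold protein, was at 3.92 and 11.3 CPM in the clones, at least 25.5-fold lower in DXp. Tnni1, for slow skeletal troponin I, was at 3.77 and 8.46 CPM in the clones, at least 20.6-fold lower. Cfap45, for a cilium protein, was at 7.39 and 3.38 CPM, at least 18.9-fold lower. Pak6, for a p21-activated kinase, was at 3.77 and 6.77 CPM, at least 17.8-fold lower. Rab17, for a small GTPase of epithelial membrane traffic, was at 0.604 and 9.13 CPM, at least 15.9-fold lower. Their adjusted p-values lay between 0.00131 and 0.0227, and those of Ppfia4, Pak6 and Rab17 did not pass with offsets. Rab17 passed only when WT clone 1 was left out, and not without WT clone 2 (adjusted p = 0.147), DXp library 1 (0.0989) or DXp library 2 (0.102).

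Bgn (chrX:73483602-73495933), for the matrix proteoglycan biglycan, was at 1.37 and 1.34 CPM in DXp and 251 and 9.13 CPM in the clones. Clone 1 held most of it, and the log2 change was -6.56 (SE 1.38 and adjusted p = 0.00438), -2.73 without WT clone 1 (adjusted p = 0.0235), and -5.49 (adjusted p = 0.0237) with offsets. It did not pass without DXp library 2 (adjusted p = 0.0543). For Ptges, a prostaglandin E synthase gene, and Nectin4, an adhesion molecule gene, clone 2 held most. Ptges was at 0.512 and 0.224 CPM in DXp and 1.51 and 70.7 CPM in the clones, a log2 change of -6.48 (SE 1.82 and adjusted p = 0.0179), and did not pass without WT clone 2, at -1.92 (adjusted p = 0.288), without DXp library 1 (0.0905) or 2 (0.132), or with offsets. Nectin4 was at 0.683 and 0.671 CPM in DXp and 4.07 and 110.1 CPM in the clones, a log2 change of -6.34 (SE 1.35 and adjusted p = 0.00412), -2.55 without WT clone 2 (adjusted p = 0.0346), and did not pass without DXp library 2 (adjusted p = 0.0515). Abca2, for a lipid transporter, was at 0.342 and 0.671 CPM in DXp and 11 and 65.1 CPM in the clones, a log2 change of -6.20 (SE 1.20 and adjusted p = 0.00248), and passed with offsets. Sh2d3c, for an SH2-domain adaptor, had 2 counts over DXp and 186 over the clones, a ratio of 76.6 with a 95% counting interval of 20.9 to 637. It passed without offsets (adjusted p = 0.00272) and not with them (0.0619).

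Cytosolic ribosomal protein genes were the list with the largest share of lower genes among lists of 8 or more tested genes. Of 14 tested, 12 were lower and none higher, with a median log2 change of -2.42 against -0.09 over all genes tested. With offsets 9 were lower and none higher, with a median of -1.65 against -0.04. Together the 14 genes took 1.02% and 0.794% of the shared counts in DXp libraries 1 and 2, and 2.11% and 5.63% in WT clones 1 and 2. The clones differed from each other in this by more than the DXp libraries did, and the groups did not overlap. Rpl7a was at 113 and 182 CPM in DXp and 2690.3 and 4486 CPM in the clones, a log2 change of -4.60 (SE 0.43 and adjusted p = 4.87e-05), and -3.37 (adjusted p = 0.00163) with offsets. Rpl35 was at 153 and 106 CPM in DXp and 2074 and 2782 CPM in the clones, a log2 change of -4.23 (SE 0.36 and adjusted p = 4.26e-05), and -1.83 (adjusted p = 0.00464) with offsets. Rpl31 and Rpl12 were lower, at -3.11 (SE 0.41 and adjusted p = 0.000252) and -2.54 (SE 0.41 and adjusted p = 0.000867), and in both fits. Rpl22l1, a paralog of Rpl22, did not pass, at 1.37 (SE 0.70 and adjusted p = 0.148). Without WT clone 2 the list had 11 lower and 2 higher genes, with a median of -1.61. Ribosomal protein genes have many near-identical pseudogenes, so the split of reads between them is uncertain. Of 19 tested pseudogenes of such genes, 13 were lower and none higher, 7 with offsets.

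Genes of the respiratory chain and ATP synthase split, with 8 of 28 (28.6%) higher, 11 (39.3%) lower and a median of -0.55. With offsets 1 was higher and 10 lower. Cox5b, for a subunit of complex IV, was at 27.0 and 31.5 CPM in DXp and 367 and 312 CPM in the clones, a log2 change of -3.54 (SE 0.33 and adjusted p = 4.87e-05), and -3.01 (adjusted p = 0.00137) with offsets. Ndufa8, for a subunit of complex I, changed by -3.70 (SE 0.37 and adjusted p = 6.52e-05), with -1.46 (adjusted p = 0.0158) under offsets. Sdhc, for a membrane subunit of succinate dehydrogenase, was at 39.3 and 37.4 CPM in DXp and 221 and 424 CPM in the clones, a log2 change of -3.07 (SE 0.39 and adjusted p = 0.000204), and -2.76 (adjusted p = 0.00279) with offsets. In each of these the clones were the high libraries. Timm8a1, an X-linked gene for a chaperone of mitochondrial protein import, was the list's gene higher in both fits, at 2.21 (SE 0.43 and adjusted p = 0.00229) and 2.76 (adjusted p = 0.00286). Without DXp library 2 the higher genes of the list numbered 2 and the lower ones 10, and without WT clone 1 they numbered 2 and 14.

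Of 20 genes of glycolysis and central carbon metabolism, 3 (15.0%) were higher and 9 (45.0%) lower, with a median of -0.91. With offsets these were 1 and 8, with a median of -0.65. None was higher and 7 were lower without DXp library 2. Idh3b, another subunit gene of isocitrate dehydrogenase, was at 98.0 and 74.5 CPM in DXp and 364 and 601 CPM in the clones, a log2 change of -2.48 (SE 0.34 and adjusted p = 0.000321), and -2.51 (adjusted p = 0.00227) with offsets. Idh3g, G6pdx and Sdhc, given above, are in this list too. The lower members thus included genes of the citric acid cycle and the pentose phosphate pathway rather than of glycolysis alone.

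**Figure D5:**
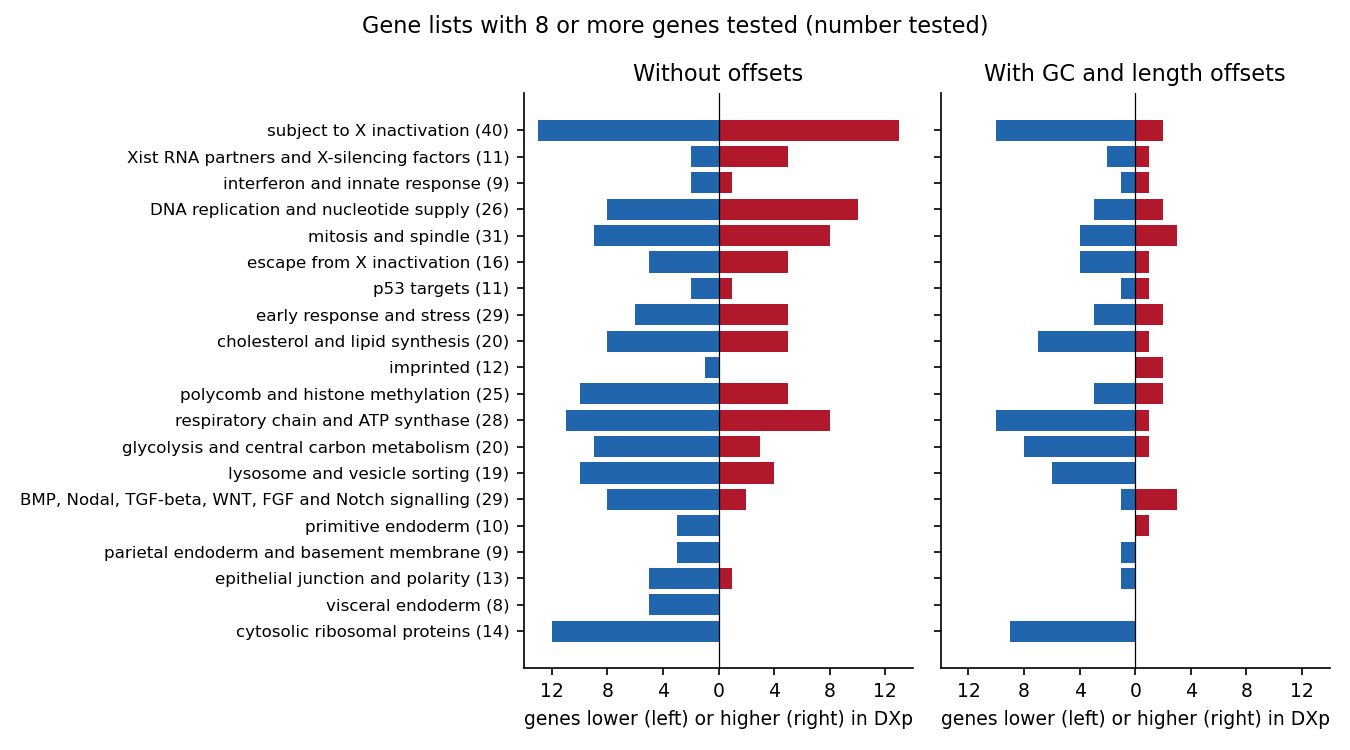
Number of genes lower (blue, left) and higher (red, right) in DXp (horizontal axis) for each gene list with 8 or more tested genes, with the number tested in brackets, without (left panel) and with (right panel) GC and length offsets. Ribosomal protein genes had 12 of 14 lower without offsets and 9 with them, and no list had more than 3 genes higher with offsets.

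Genes of cholesterol and lipid synthesis had 5 of 20 (25.0%) higher and 8 (40.0%) lower, with a median of -0.43. With offsets 1 was higher and 7 lower, with a median of -0.89. Leaving out DXp library 2 also gave 1 higher and 7 lower, and leaving out DXp library 1 or WT clone 1 gave 3 and 7. Pmvk, for phosphomevalonate kinase of the mevalonate pathway, was at 6.15 and 4.03 CPM in DXp and 199 and 184 CPM in the clones. The clones were far higher, with a log2 change of -5.22 (SE 0.45 and adjusted p = 4.26e-05), and -2.94 (adjusted p = 0.00163) with offsets. Nsdhl, an X-linked gene for a later enzyme of cholesterol synthesis, was lower, at -1.94 (SE 0.33 and adjusted p = 0.00115), and -2.27 (adjusted p = 0.00278) with offsets. Pigt, for a subunit of the enzyme that attaches GPI anchors, passed without offsets only, at -3.77 (SE 0.50 and adjusted p = 0.000251). Lpgat1, for an acyltransferase of phospholipids, went the other way, at 854 and 968 CPM in DXp and 107 and 101 CPM in the clones. Its log2 change was 3.13 (SE 0.35 and adjusted p = 0.0001), and 2.47 (adjusted p = 0.00231) with offsets.

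Lysosome and vesicle sorting genes had 4 of 19 (21.1%) higher and 10 (52.6%) lower, with a median of -1.01. With offsets 6 were lower and none higher, with a median of -0.43. Vps18, for a core subunit of the tethering complexes of endosomes and lysosomes, was at 4.10 and 6.49 CPM in DXp and 91.9 and 115 CPM in the clones, a log2 change of -4.29 (SE 0.42 and adjusted p = 6.04e-05), and -1.94 (adjusted p = 0.0163) with offsets. Lamtor2, for a subunit of the complex that anchors Rag GTPases on lysosomes, was at 7.0 and 7.61 CPM in DXp and 192 and 95.4 CPM in the clones, a log2 change of -4.29 (SE 0.45 and adjusted p = 7.89e-05), and -1.85 (adjusted p = 0.0196) with offsets. Ncstn, for a gamma-secretase subunit, changed by -3.27 (SE 0.30 and adjusted p = 4.56e-05) and -2.09 (adjusted p = 0.0014) in the 2 fits. Ctsa, for the protective cathepsin of lysosomes, changed by -2.85 (SE 0.28 and adjusted p = 6.04e-05), and did not pass with offsets, at -0.88 (adjusted p = 0.0507). Lamp2 and Atp6ap2, X-linked genes for a lysosomal membrane protein and an accessory subunit of the proton pump, were higher without offsets, at 2.13 (SE 0.34 and adjusted p = 0.000776) and 1.73 (SE 0.33 and adjusted p = 0.00201), and did not pass with them. They were named after their values were seen.

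Cell cycle genes showed no single direction, beside 15.2% higher and 25.0% lower of all genes tested. Of 26 genes of DNA replication and nucleotide supply, 10 were higher and 8 lower, with a median of 0.37, with offsets 2 and 3, and without DXp library 2 5 and 4. Rbl1, for the retinoblastoma relative p107, was at 214 and 238 CPM in DXp and 25.2 and 4.90 CPM in the clones, a log2 change of 3.90 (SE 0.63 and adjusted p = 0.00092), and 3.05 (adjusted p = 0.0089) with offsets. Dut, for the enzyme that keeps uracil out of DNA, was lower in both fits, at -1.96 (SE 0.29 and adjusted p = 0.000523) and -1.26 (adjusted p = 0.0121). E2f1, a transcription factor gene of S-phase entry, and Parp1, a DNA repair enzyme gene, were lower, at -3.49 (SE 0.58 and adjusted p = 0.000954) and -2.32 (SE 0.33 and adjusted p = 0.000418) and did not pass with offsets. Of 31 genes of mitosis and the spindle, 8 were higher and 9 lower, with a median of 0.35, with offsets 3 and 4, and without DXp library 2 5 and 7. Ube2c, for a ubiquitin-conjugating enzyme of the anaphase-promoting complex, and Aurka, for the Aurora A kinase, were lower in both fits, at -3.11 (SE 0.35 and adjusted p = 0.000109) and -2.51 (SE 0.35 and adjusted p = 0.00032), with -1.10 (adjusted p = 0.0471) and -1.48 (adjusted p = 0.0106) under offsets. Spc25, for a kinetochore subunit, was higher in both, at 1.84 (SE 0.29 and adjusted p = 0.000769) and 0.98 (adjusted p = 0.0326).

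Signalling genes (BMP, Nodal, TGF-beta, WNT, FGF and Notch) had 2 of 29 (6.90%) higher and 8 (27.6%) lower, with a median of -1.16. The lower share was near the 25.0% of all genes tested. With offsets 3 were higher and 1 lower, with a median of -0.21. The lower genes numbered 5 and 4 without DXp libraries 1 and 2, and 4 genes were higher without WT clone 1. Dusp9, an X-linked gene for a phosphatase of ERK, was at 36.5 and 25.1 CPM in DXp and 548 and 802 CPM in the clones. It averaged 43.6 ± 9.45 CPM (SD, n = 2) in DXp_DXm and 2398 ± 688 CPM (SD, n = 3) in WT_EV, so both deletions were low and both wild types high. The log2 change was -4.45 (SE 0.41, 95% interval -5.36 to -3.54, adjusted p = 4.87e-05), and -2.21 (adjusted p = 0.00286) with offsets. Acvr2a, for an activin receptor, was at 981 and 1032 CPM in DXp and 227 and 239 CPM in the clones, a log2 change of 2.11 (SE 0.30 and adjusted p = 0.000416), and 1.01 (adjusted p = 0.0237) with offsets. Fgf13, for an intracellular FGF homologous factor, was at 26.0 and 25.3 CPM in DXp and 2.11 and 0.169 CPM in the clones, a log2 change of 4.44 (SE 1.03 and adjusted p = 0.00588), and 4.28 (adjusted p = 0.0181) with offsets. It was near 0 in DXp_DXm (0.435 CPM) and WT_EV (0.115 CPM). Hes6 and Efnb1, for a Notch-pathway repressor and an ephrin ligand, were lower without offsets only, at -3.35 (SE 0.50 and adjusted p = 0.000552) and -3.39 (SE 0.54 and adjusted p = 0.000809).

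Early response and stress genes had 5 of 29 (17.2%) higher and 6 (20.7%) lower, with a median of -0.09, equal to that of all genes tested. With offsets 2 were higher and 3 lower. Without DXp library 2 the median was -0.11, but fewer of the 29 were called in either direction. Hspa5, for the main chaperone of the endoplasmic reticulum, was at 24242 and 15481 CPM in DXp and 6357 and 7442 CPM in the clones, a log2 change of 1.53 (SE 0.32 and adjusted p = 0.00379), and 1.24 (adjusted p = 0.0203) with offsets. Thbs1, for the secreted glycoprotein thrombospondin, was lower in both fits, at -2.96 (SE 0.49 and adjusted p = 0.001) and -2.29 (adjusted p = 0.0106). Creb1 and Atf2, transcription factor genes, were higher without offsets, at 1.64 (SE 0.29 and adjusted p = 0.00143) and 1.35 (SE 0.28 and adjusted p = 0.0032), and did not pass with them. Interferon and innate response genes had 1 of 9 higher and 2 lower, p53 targets 1 of 11 higher and 2 lower, and imprinted genes none of 12 higher and 1 lower. With offsets these were 1 and 1, 1 and 1, and 2 higher with none lower. Without DXp library 2 the interferon and p53 lists had 1 lower gene each and none higher. The lower p53 target genes were Phlda3, which encodes an inhibitor of AKT, at -4.04 (SE 0.72 and adjusted p = 0.00183), and Btg2, an antiproliferative gene, at -1.73 (SE 0.42 and adjusted p = 0.00732). Phlda3 did not pass with offsets, and Btg2 did, at -1.21 (adjusted p = 0.0476), but not without DXp library 2. The lower imprinted gene was H13, for a signal peptide peptidase, at -2.21 (SE 0.34 and adjusted p = 0.000643), and -0.19 (adjusted p = 0.724) with offsets.

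The labelled cell type was checked on endoderm markers. Sox17, a transcription factor gene of primitive endoderm, was at 1612 and 2243 CPM in DXp and 1367 and 367 CPM in the clones. Foxa2, another endoderm transcription factor gene, was at 259 and 144 CPM in DXp and 571 and 115 CPM in the clones. Neither difference passed without offsets, at 1.15 (SE 0.49 and adjusted p = 0.0835) and -0.77 (SE 0.65 and adjusted p = 0.366), and with offsets Sox17 was higher, at 2.7 (adjusted p = 0.0104). Foxa2 was the other way with offsets and without WT clone 1, at 1.41 and 0.82. Gata5 and Col4a6 were at 0 in all 4 libraries. Other defining endoderm genes lie on chromosomes that were not analysed here. Of the 15 primitive endoderm markers 10 were tested, 3 (30.0%) were lower and none higher, with a median of -1.18. With offsets none was lower and 1 higher. Without WT clone 2, 6 were lower, without WT clone 1 none, and without DXp libraries 1 and 2 the lower genes numbered 1 and 0.

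Visceral endoderm markers had 5 of 8 (62.5%) lower and none higher, with a median of -2.39, and none passed with offsets. Hnf4a, for a nuclear receptor of endoderm, was at 33.5 and 16.6 CPM in DXp and 179 and 56.0 CPM in the clones, a log2 change of -2.23 (SE 0.55 and adjusted p = 0.00863). It did not pass without WT clone 1 (adjusted p = 0.0686) or DXp library 2 (0.0907). The endocytic receptor genes of yolk sac, Cubn and Lrp2, did not pass, at 0.38 (SE 0.58 and adjusted p = 0.634) and -1.09 (SE 0.47 and adjusted p = 0.0876). Cited1, a transcriptional coregulator gene, was at 8.88 and 8.05 CPM in DXp and 164 and 21.3 CPM in the clones, and F2, for prothrombin, at 9.91 and 8.72 CPM in DXp and 83.6 and 26.0 CPM in the clones. Both were led by clone 1, and neither passed without it, at -1.32 (adjusted p = 0.255) and -1.48 (adjusted p = 0.123). Nor did they pass without DXp library 1 (adjusted p = 0.108 for Cited1 and 0.0733 for F2) or 2 (0.142 and 0.108). Without WT clone 1 the visceral list had 1 lower gene, without WT clone 2 it had 6, and without DXp libraries 1 and 2 it had 1 and none.

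Parietal endoderm and basement membrane markers had 3 of 9 (33.3%) lower and none higher, with a median of -1.26, and 1 lower with offsets. Lamc1, for the laminin gamma 1 chain, was at 39342 and 24119 CPM in DXp and 123901 and 27995 CPM in the clones. Clone 1 stood apart from the other 3 libraries, and the difference did not pass, at -1.26 (SE 0.55 and adjusted p = 0.0908). The summed level of the 16 parietal markers held was mostly that of Lamc1. This sum was 41800 and 26537 CPM in DXp and 129126 and 30225 CPM in the clones, so that clone 2 lay between the DXp libraries. Snai1, a repressor gene of epithelial genes, was at 12.5 and 10.3 CPM in DXp and 231 and 19.6 CPM in the clones, called at -3.46 (SE 0.88 and adjusted p = 0.0115), and at -0.78 without WT clone 1 (adjusted p = 0.227). It did not pass without DXp library 1 (adjusted p = 0.0630) or 2 (0.0989) either. Lama5, for a laminin chain, was lower, at -3.43 (SE 0.70 and adjusted p = 0.00377). It did not pass without DXp library 2 (adjusted p = 0.0503) or with offsets. Without WT clone 1 the list had 2 lower and 1 higher genes, without WT clone 2 it had 6 lower, and without DXp library 2 it had 1 lower.

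Pluripotency markers summed to 2476 and 2593 CPM in DXp and 3756 and 4421 CPM in the clones. Of the 14 listed, 6 were tested, with 1 higher and 1 lower. The higher one was Zfp281, a zinc-finger factor gene, at 1.46 (SE 0.25 and adjusted p = 0.00117), and the lower one Dnmt3b, a DNA methyltransferase gene, at -2.74 (SE 0.68 and adjusted p = 0.0104), which did not pass without DXp library 2 (adjusted p = 0.104) or WT clone 1 (0.0769). Neither passed with offsets, where Sall4, a zinc-finger factor gene, was the list's 1 called gene, at 1.38 (adjusted p = 0.0196), against -0.45 (SE 0.32 and adjusted p = 0.286) without them. Sox2, the core pluripotency factor gene of this list, had no count in DXp and at most 0.169 CPM in the clones. Trophoblast markers summed to 152 and 118 CPM in DXp and 233 and 222 CPM in the clones, with Cdx4 at 0 and 1 of 5 tested genes lower. That gene was Elf3, an epithelial transcription factor gene, at -3.58 (SE 0.62 and adjusted p = 0.00126), and with offsets, at -1.40 (adjusted p = 0.122), it did not pass.

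Muscle markers summed to 2.90 and 3.36 CPM in DXp and 16.1 and 183 CPM in the clones, and 3 of 4 tested genes were lower, or 1 with offsets and 2 without DXp library 1, DXp library 2 or WT clone 2. Tnnt2, for cardiac troponin T, was at 1.20 and 0.224 CPM in DXp and 0.302 and 128 CPM in the clones, and without WT clone 2 its log2 difference was 1.23. It did not pass without DXp library 1 (adjusted p = 0.0956) or 2 (0.171), nor with offsets. Des, for the intermediate filament desmin, was at 0.683 and 0.895 CPM in DXp and 9.81 and 41.4 CPM in the clones, a log2 change of -4.99 (SE 1.05 and adjusted p = 0.00372), and did not pass with offsets. Fibroblast markers summed to 217 and 298 CPM in DXp and 1363 and 571 CPM in the clones, with 2 of 3 tested genes, Bgn and Thbs1, lower, or 1 without DXp library 2. Blood and endothelial markers summed to 45.4 and 49.0 CPM in DXp and 265 and 127 CPM in the clones, mostly Procr, for the protein C receptor, which was lower, at -2.07 (SE 0.42 and adjusted p = 0.00302), but not with offsets, at -1.09 (adjusted p = 0.0921). Neuronal markers summed to 40.8 and 85.2 CPM in DXp and 52.2 and 48.5 CPM in the clones. Germline markers summed to 1756 and 1794 CPM in DXp and 1199 and 1297 CPM in the clones. Most of that was Xlr3a, at 1319 and 1150 CPM in DXp and 827 and 836 CPM in the clones. Of 24 germline markers held, 13 were at 0 in all 4 libraries, and none of the 7 tested was called. The part of these marker lists in the other results was not tested.

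Epithelial junction and polarity genes had 1 of 13 (7.69%) higher and 5 (38.5%) lower, with a median of -1.71, and with offsets 1 lower. Without DXp library 2 or WT clone 2 it had 3 lower and none higher, and without WT clone 1 it had 6 lower and 3 higher. Lad1, for a basement membrane anchor protein, was at 1.88 and 2.91 CPM in DXp and 13.7 and 142 CPM in the clones, a log2 change of -5.02 (SE 1.04 and adjusted p = 0.00381), and did not pass with offsets. It was highest in clone 2, and the DXp libraries lay below the clones. F11r, for a tight junction protein, was lower, at -1.71 (SE 0.45 and adjusted p = 0.0117), but not without DXp library 2 (adjusted p = 0.0942) or WT clone 2 (0.0602), nor with offsets, at -1.09 (adjusted p = 0.0952).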

How the data were processed

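Gene-level read counts of 4 RNA-seq libraries (DXp and WT_clone, n = 2 each) were compared. The submitters' processing notes name FastQC, STAR 2.7.9a, featureCounts 2.0.1 and the build GRCm38 (mm10). What the authors deposited are raw read counts per gene, without normalization. For strand setting, annotation release and treatment of multiply mapped reads, nothing is stated in the sources used here. The WT_clone table was used in part: it ended inside a row, which was dropped (1 incomplete row). Start, end and length were equal in both tables for all 11512 shared genes. GENCODE M21 gave RNA class and GC content of the longest transcript for 11432 of them. Symbols came from a list of gene names by gene ID, and from GENCODE M21 where that list had none. Gene lengths were those deposited with the counts. Some items are not reported here.

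Counts of shared genes were filtered (filterByExpr), scaled by TMM and tested with edgeR 4.0.16 (robust quasi-likelihood, R 4.3.3) over all 9 libraries with group as the term, and p-values were adjusted by Benjamini-Hochberg over every tested gene. Sharing the spread over 9 libraries assumes that it is alike in the 4 groups. The biological coefficient of variation was 39.3%. SEs and 95% intervals come from the F statistic and its degrees of freedom. The script was tested on simulated counts.

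Offsets were natural splines (5 degrees of freedom) of each library's log2 CPM (prior count 2) against GC content and log length, relative to the mean of the group means. Alternatives were RLE scaling, TMM from autosomal genes, no filter, DESeq2 1.42.0, fits of 4 or 6 libraries, a replicate block, and leaving out each library. None of these used the offsets. The offsets and DESeq2 on the 4 libraries alone were chosen after seeing the data.

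The rule for named genes took the 10 higher and 10 lower genes of largest log2 change among called genes with a mean of at least 2 CPM over the 4 libraries and no overlap of the groups. It left out symbols of the forms Gm plus digits, Rik, -ps and clone names. It added Xist, up to 4 genes per list of lowest p, and further genes of the escape and Xist partner lists where the text uses them. Those further genes, Kdm6a, Shroom4, Ddx3x, Eif2s3x and Celf1, were picked, and other members of these lists are not named. Genes named otherwise (Chic1, Timm8a1, Fgf13, Hspa5, Lamp2, Atp6ap2, Sox17, Foxa2, Lamc1, Cubn, Lrp2, Rpl22l1 and Bex3) were chosen after their values were seen. The comparison, the 28 gene lists and the rule were chosen with earlier results of these data known. Some genes belong to several lists. No list was tested as a set.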

Additional observations from a re-analysis of the deposited data

How the results depend on the processing

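Limits: 2 libraries a group, separately deposited tables, and a GC trend between the groups. The calls fell with offsets to 171 higher and 349 lower, and with offsets on the 4 libraries alone to 17 higher and 37 lower (673 genes at an unadjusted p under 0.05). The 4-library fit gave 292 higher. Leaving out each library gave 207 to 505 higher and 485 to 829 lower, the lowest both without DXp library 2. In each such fit 1 arm has a lone library, assumed to vary like the other groups. Called list genes numbered 187, 88 with offsets, 14 with offsets on the 4 libraries, and 111 to 184 without each library. The median of genes over 54% GC minus that of genes under 42% moved from -3.95 to -0.78 with offsets. The X-linked minus autosomal median was 0.62, 0.097 with offsets, 0.12 with offsets on the 4 libraries, and 0.32 to 0.65 without each library. Xist was 0.90 with offsets and 0.82 with offsets on the 4 libraries (adjusted p = 0.274). Log2 differences opposite in sign to the reported ones were those of Ddx3x (-0.59), Eif2s3x (-0.43), Foxa2 (1.41), Lamc1 (0.24) and Sall4 (1.38) with offsets, and of Ddx3x (-0.70), Eif2s3x (-0.62), Foxa2 (1.69), H13 (0.053), Lamc1 (0.41) and Sall4 (1.56) with offsets on the 4 libraries. Leaving out each library turned the sign of Eif2s3x (-0.089 to 0.39), Foxa2 (-1.51 to 0.82), Lamc1 (-1.97 to 0.19) and Tnnt2 (-8.0 to 1.23). RLE scaling (612 higher, 770 lower), autosomal TMM (564, 792), DESeq2 (659, 788), DESeq2 on the 4 libraries (471, 672), no filter (544, 909) and 6 libraries (383, 691) called no gene in the opposite direction. The library numbers were not found to pair the libraries: deviations from group means correlated at 0.016 for the numbers in the names. The numbers after "rep" disagree with these for DXp, so their value of -0.016 is the same correlation with its sign turned. A replicate block on the numbers in the names gave 378 higher and 650 lower, and Xist at 2.0 (adjusted p = 0.00312). The replicate block on those after "rep" gave 73 higher and 320 lower, 65 list genes, and Xist at 2.0 (adjusted p = 0.0461). Where a group had no count, depth allowed only a bound of the fold.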

Other observations

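The Armcx genes, a family on the X chromosome, were looked at after the values of Armcx3 and Armcx2 were seen. Of 5 tested, 2 were higher in DXp and 3 did not pass. Armcx3 averaged 114 ± 38.4 CPM (SD, n = 2) in DXp against 0.26 ± 0.367 CPM (SD, n = 2) in DXp_DXm and 0.913 ± 1.31 CPM (SD, n = 3) in WT_EV, so it was high in DXp alone of the 4 groups' means. Bex3, a gene of the same stretch of the X chromosome, for a small signalling adaptor, went the other way. Bex3 was at 172 and 62.4 CPM in DXp and 2174 and 2081 CPM in the clones, a log2 change of -4.18 (SE 0.53 and adjusted p = 0.000209), and -2.18 (adjusted p = 0.0157) with offsets. In DXp_DXm it averaged 346 ± 20.9 CPM (SD, n = 2), and in WT_EV 2517 ± 949.8 CPM (SD, n = 3).

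Small RNA classes without a poly(A) tail (1425 miRNA, small nuclear, small nucleolar, Cajal-body, ribosomal and miscellaneous RNA genes among those shared) took 0.0251% and 0.0301% of the shared counts in DXp libraries 1 and 2 and 0.0146% and 0.0190% in WT clones 1 and 2. In WT_EV they took 0.340% to 0.401%. In DXp_DXm they took 0.0290% and 0.0244%. Both DXp libraries thus lay above both clones in this share, and WT_EV stood far above the other groups. Tfcp2l1, a transcription factor gene of the pluripotency list, was at 505 and 223 CPM in DXp and 486 and 2353 CPM in the clones, highest in clone 2, and did not pass (adjusted p = 0.0533). Fn1, for fibronectin, was at 519 and 185 CPM in DXp and 2676 and 476 CPM in the clones, highest in clone 1, and did not pass (adjusted p = 0.0551).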
